A study of Mus musculus with 6 samples.

Results

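The genes described here encode the machinery that fastens telomeres to the nuclear envelope and moves chromosomes in early meiosis. They were chosen by name, at a time when earlier results of these data were known. They comprise the LINC complex genes Sun1, Sun2 and Kash5, the meiotic telomere complex genes Terb1, Terb2 and Majin, the shelterin genes Terf1 and Terf2, and the telomeric kinase pair Spdya and Cdk2. All 10 were found among the 54532 genes of the count table, Kash5 under its older symbol Ccdc155. Of these, 9 passed the low-count filter, which kept 8513 genes of the whole table, and Kash5 did not.

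In prophase I, telomeres attach to the inner nuclear membrane and are pulled along it so that homologous chromosomes can find each other. SUN proteins span the inner membrane and join KASH proteins of the outer membrane in the LINC bridge, through which cytoplasmic dynein reaches the chromosome ends. The TERB1-TERB2-MAJIN complex connects the telomere, bound by shelterin, to the membrane, and CDK2 with its activator Speedy A also resides at telomeres.

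RNA-seq counts came from leptotene/zygotene (L/Z) spermatocytes isolated by flow cytometry from testes of C57BL/6J mice at 12 days postpartum (dpp), in 3 Control and 3 Eef1g-cKO libraries. The Control group consisted of littermates labelled wild type. Eef1g-cKO males carried a floxed Eef1g allele that Stra8-GFPCre deletes, a Cre driven by a promoter of premeiotic male germ cells, so the somatic cells of the testis keep the gene. eEF1G is a subunit of the translation elongation factor eEF1. The labels do not say whether libraries came from separate animals or from pools, so the p-values measure only the spread between these libraries. The sample is bulk RNA, in which fewer cells of a type and less RNA per cell cannot be told apart.

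The libraries held between 763133 and 2617648 reads assigned to genes, and Eef1g-cKO replicate 3 was the shallowest. A count of 3 reads, taken as the detection floor, corresponded to between 1.18 and 4.63 CPM, the unit of counts per 1000000 library reads after TMM scaling. Eef1g itself was at 222, 226 and 212 CPM in the Control libraries and at 139, 151 and 119 CPM in the Eef1g-cKO libraries, a log2 fold change of -0.68 with an SE of 0.20 (edgeR adjusted p = 0.029). The count of a whole gene cannot show the loss of single exons. The 9 L/Z markers examined summed to between 9834 and 11276 CPM in Control and to between 21240 and 28182 CPM in Eef1g-cKO libraries, and 6 of them rose, as did 7.8% of all tested genes. Those were Sycp1, the most abundant, Sycp2, Sycp3, Dmc1, Hormad1 and Smc1b. Meiob, Spo11 and Prdm9 did not pass, with log2 fold changes of 0.06, 0.07 and 0.84 (edgeR adjusted p = 0.91, 0.90 and 0.14). The 9 spermatogonial markers summed to between 1377 and 1549 CPM in Control and to between 642 and 784 CPM in Eef1g-cKO libraries, and all 4 that could be tested fell, as did 6.01% of all tested genes. Among markers of other cells, the Sertoli list summed to 85.5 to 293 CPM in Control and 1.54 to 45.3 CPM in Eef1g-cKO libraries, and Amh and Gata4 were at or under the floor in every library. The peritubular and stromal list summed to 103 to 212 CPM in Control and 12.4 to 52.9 CPM in Eef1g-cKO libraries. The Leydig list, with Cyp17a1, Cyp11a1, Hsd3b1, Insl3 and Lhcgr at or under the floor everywhere, summed to 8.40 to 10.7 and 1.57 to 6.47 CPM. The pachytene and later list summed to 27.3 to 43.7 and 3.09 to 15.4 CPM, with Acrv1, Adam3, Tnp1, Prm1 and Spata16 at or under the floor in every library. The blood list was highest in Control replicate 1, at 77.9 CPM, and in Eef1g-cKO replicate 3, at 75.7 CPM. The part of these cell differences in the results that follow was not tested. L/Z marker reads are set beside the genes of interest further on, but that comparison does not test it either. Of those 9 markers, 6 were themselves called higher, so a like rise of a gene cancels against them. Their sum is weighted by abundance. Sycp1 alone had 68067 reads over all libraries, whereas Meiob, Spo11 and Prdm9, which did not pass, had 1407, 924 and 581. Scaling to L/Z marker reads is therefore mostly scaling to markers that rose.

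To ask how RNA of the attachment machinery differed between genotypes, its counts were compared by edgeR's quasi-likelihood test in a fit over all tested genes. Relative to the whole library, Sun1, Terb1, Terb2 and Spdya rose in Eef1g-cKO spermatocytes, by between 1.98-fold and 2.69-fold. Sun2, Majin, Terf1, Terf2 and Cdk2 did not pass the test in either direction. Thus 4 of the 9 tested genes were higher, where 7.8% of all tested genes were, and 0 were lower, where 6.01% of all tested genes were. The same 4 and 0 were found at an unadjusted p under 0.05 and by DESeq2 and limma-voom, for which shares of all tested genes are not given here. The unadjusted threshold passes more of all tested genes than the shares above. With the study's limit of a log2 fold change over 1, Sun1, Terb2 and Spdya remained, 3 of 9, against 3.42% of all tested genes. On the log2 scale the median of these 9 differences was 0.80, against -0.05 over the whole table and 1.09 over the 9 L/Z markers. The summed CPM of the 10 genes lay between 786 and 929 in Control and between 1378 and 1650 in Eef1g-cKO libraries. This rise holds against the whole library and not against L/Z marker reads: with libraries scaled to the latter, edgeR called 0 of the 9 genes higher, where 0.235% of all tested genes were, and 4 lower, where 61.2% of all tested genes were, with Sun1, Terb1, Terb2 and Spdya among neither.

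**Figure D1:**
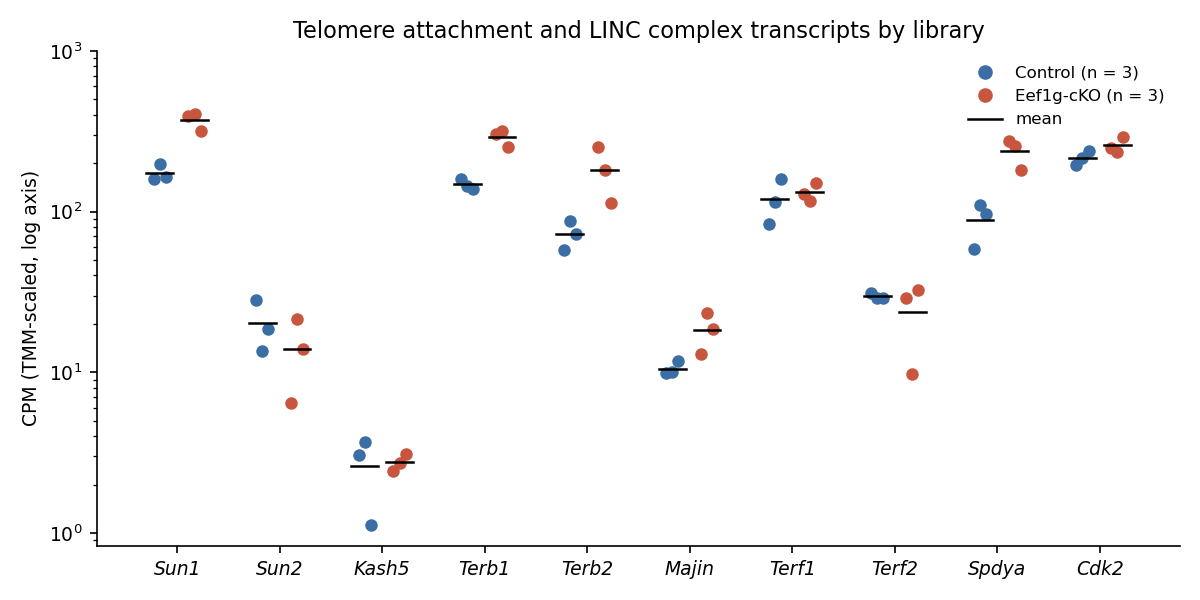
CPM (log axis) of the 10 genes, 1 point per library, with Control in blue, Eef1g-cKO in red and group means as bars. The points of Sun1, Terb1, Terb2, Spdya and Majin do not overlap between genotypes on this whole-library scale, whereas those of the other genes do.

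The LINC complex genes come first. Sun1 encodes the inner membrane protein to which meiotic telomeres are joined (ENSMUSG00000036817, GRCm38 chr5:139200637-139249840, plus strand). It was at 160, 198 and 164 CPM in Control replicates 1 to 3 and at 393, 403 and 318 CPM in Eef1g-cKO replicates 1 to 3. The lowest Eef1g-cKO library lay well above the highest Control library, and both groups were tight around their means of 174 ± 21.3 and 372 ± 46.5 CPM (SD, n = 3). The log2 fold change was 1.10 with an SE of 0.18 (edgeR adjusted p = 0.000673), a 2.14-fold difference, and of the scalings tried it was negative, at -0.06, only under that to L/Z marker reads.

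Sun2, the paralogue of Sun1 that also takes part in telomere attachment (ENSMUSG00000042524, chr15:79724070-79742536, minus strand), was a minor transcript. It had 37, 26 and 33 reads in Control and 8, 55 and 9 reads in Eef1g-cKO libraries, or 28.2, 13.6 and 18.5 CPM against 6.47, 21.6 and 13.9 CPM. The genotypes overlapped, and Eef1g-cKO replicate 2 lay above 2 of the 3 Control libraries. The log2 fold change of -0.48 had a 95% interval from -1.70 to 0.74 (edgeR adjusted p = 0.64), so that neither a fall nor a modest rise could be told from the spread.

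Kash5 encodes the outer membrane partner that binds dynein (ENSMUSG00000038292, chr7:45183624-45204892, minus strand). It had 4, 7 and 2 reads in Control and 3, 7 and 2 reads in Eef1g-cKO libraries. These are counts near the floor of 3 reads, at 3.05, 3.67 and 1.12 CPM and at 2.43, 2.74 and 3.09 CPM. A fit without the low-count filter gave a log2 difference of 0.11 with a 95% interval from -2.90 to 3.11, and a change of Kash5 RNA was therefore not detectable at this depth.

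The genes of the meiotic telomere complex were next. Terb1, whose product binds the shelterin protein TRF1 (ENSMUSG00000052616, chr8:104446719-104509910, minus strand), was at 160, 145 and 138 CPM in Control and at 302, 315 and 253 CPM in Eef1g-cKO libraries. All 3 Eef1g-cKO libraries were above every Control library, with means of 147 ± 11.1 and 290 ± 32.4 CPM (SD, n = 3). Its log2 fold change was 0.98 with an SE of 0.19 (edgeR adjusted p = 0.00206), which is 1.98-fold and just under the study's fold limit, and it was -0.19 relative to L/Z marker reads.

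Terb2, whose product links TERB1 to MAJIN (ENSMUSG00000027229, chr2:122186272-122206397, plus strand), was at 57.2, 87.7 and 72.8 CPM in Control libraries. In Eef1g-cKO it was at 253, 180 and 113 CPM, a much wider scatter. The groups did not overlap, but replicate 3 of Eef1g-cKO lay closer to the Control libraries than to replicate 1 of its own group. The means were 72.6 ± 15.2 and 182 ± 70.2 CPM (SD, n = 3), and the log2 fold change was 1.33 with an SE of 0.28 (edgeR adjusted p = 0.00386), or 0.19 and not past the test relative to L/Z marker reads.

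Majin, whose product carries the complex in the inner membrane (ENSMUSG00000024786, chr19:6184388-6224225, plus strand), was sparse. It had 13, 19 and 21 reads in Control and 16, 60 and 12 reads in Eef1g-cKO libraries, or 9.92, 9.97 and 11.8 CPM against 12.9, 23.5 and 18.5 CPM. The groups were just separated, and the log2 difference of 0.80 had a 95% interval from -0.41 to 2.02 (edgeR adjusted p = 0.40). Majin thus did not pass the test, although its estimate lay close to that of Terb1.

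With Majin, 5 of the 10 genes had all Eef1g-cKO CPM values above all Control values, as did 16.4% of all tested genes. No gene of the machinery had all Eef1g-cKO values below the Control values, as 18.1% of all tested genes did.

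The shelterin genes showed no called difference against the whole library. Relative to L/Z marker reads both were called lower, as were 61.2% of all tested genes. Terf1 encodes TRF1, a protein that binds double-stranded telomeric DNA (ENSMUSG00000025925, chr1:15805646-15844052, plus strand), and was at 84.0, 114 and 160 CPM in Control and at 129, 116 and 151 CPM in Eef1g-cKO libraries. The Eef1g-cKO values all lay within the Control range. Its log2 difference was 0.13 with a 95% interval from -0.41 to 0.67 (edgeR adjusted p = 0.79), and its sign turned under library-total scaling, a stricter filter, a GC content offset or omission of Control replicate 1. Scaling to L/Z marker reads also turned it, to -1.05.

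Terf2 encodes TRF2, which protects chromosome ends from fusion (ENSMUSG00000031921, chr8:107069400-107096547, minus strand). It was at 31.3, 28.9 and 29.1 CPM in Control and at 29.1, 9.80 and 32.4 CPM in Eef1g-cKO libraries. Only Eef1g-cKO replicate 2 stood low, and the other libraries were alike. The log2 difference was -0.38 with a 95% interval from -1.41 to 0.65 (edgeR adjusted p = 0.67), and without Eef1g-cKO replicate 2 it was 0.06.

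Of the telomeric kinase pair, only the activator passed the test, and the difference between the 2 genes is given with the ratios. Spdya encodes Speedy A, a cyclin-like activator of CDK2 that is required for telomere attachment in meiosis (ENSMUSG00000052525, chr17:71552061-71589533, plus strand). It was at 58.8, 109 and 96.8 CPM in Control and at 275, 255 and 182 CPM in Eef1g-cKO libraries. The groups did not overlap, with means of 88.3 ± 26.3 and 237 ± 48.8 CPM (SD, n = 3). At 1.43 with an SE of 0.25 (edgeR adjusted p = 0.000991), its log2 fold change was the highest estimate of the 9 genes, although its interval overlapped those of Terb2, Sun1 and Terb1. Relative to L/Z marker reads it was 0.28 and did not pass the test.

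Cdk2, the kinase itself (ENSMUSG00000025358, chr10:128697939-128705031, minus strand), was at 195, 215 and 238 CPM in Control and at 248, 233 and 292 CPM in Eef1g-cKO libraries. Eef1g-cKO replicate 2 lay below Control replicate 3, so the groups overlapped. The log2 difference was 0.25 with a 95% interval from -0.14 to 0.64 (edgeR adjusted p = 0.42).

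**Figure D2:**
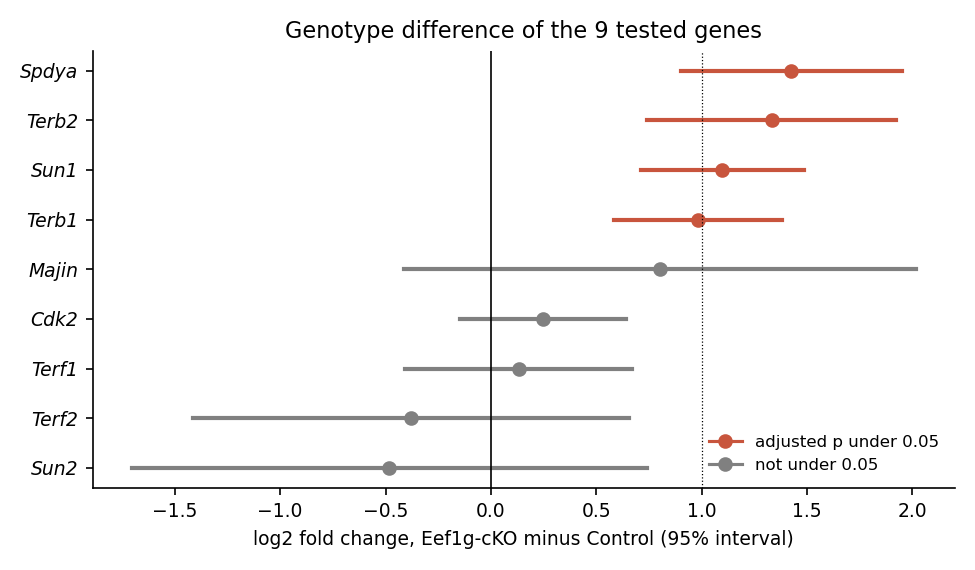
Log2 fold change (Eef1g-cKO minus Control, edgeR, TMM scaling) with its 95% interval for the 9 tested genes, red where the adjusted p was under 0.05, and a dotted line at a log2 fold change of 1. Spdya (1.43), Terb2 (1.33), Sun1 (1.10) and Terb1 (0.98) lie clear of 0 on the whole-library scale, which is not so relative to L/Z marker reads, and the intervals of the sparse genes Sun2, Majin and Terf2 are wide.

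Some of the genes overlap other annotated genes, and the sources used here do not say whether counting used strand. The overlapping genes had few reads over all 6 libraries: 22 for Trmt61b and 6 for Mettl4-ps1 at Spdya, 20 for Pmel at Cdk2, 2 for Gm22148 at Terb1, 1 for Gm16575 at Sun2, and 0 for the genes at Sun1 and Terf2.

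To compare levels between genes, reads were also divided by the gene length in the count table in kilobases (RPKM, which is CPM per kilobase). In Control libraries Spdya was at 40.2 ± 12.0, Terb1 at 39.3 ± 2.97, Cdk2 at 34.7 ± 3.48 and Terb2 at 34.3 ± 7.19 RPKM (SD, n = 3), and neighbours in this order did not differ beyond their spread. Terf1 at 25.9 ± 8.26 and Sun1 at 22.9 ± 2.80 RPKM followed and were not separated from each other. A wide step below them stood Terf2 at 6.47 ± 0.29, Majin at 6.43 ± 0.64 and Sun2 at 3.71 ± 1.37 RPKM, with Kash5 last at 1.11 ± 0.56 RPKM. In RPKM the components of one complex were thus unequal, since Majin lay far below its partners Terb1 and Terb2, and Kash5 below Sun1. These levels carry no correction between genes for amplification or GC content, and Majin and Kash5 had few reads.

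In Eef1g-cKO libraries Spdya again had the highest mean, at 108 ± 22.2 RPKM, followed by Terb2 at 86.0 ± 33.2 and Terb1 at 77.3 ± 8.64 RPKM, but the values of these 3 genes overlapped and their order was not separated. Sun1 at 48.9 ± 6.12 RPKM came before Cdk2 at 41.4 ± 4.92 and Terf1 at 28.6 ± 3.92 RPKM, whereas in Control its mean came after both of theirs. The Sun1 and Cdk2 values overlapped in Eef1g-cKO libraries. Majin at 11.2 ± 3.23, Terf2 at 5.17 ± 2.66, Sun2 at 2.58 ± 1.39 and Kash5 at 1.16 ± 0.14 RPKM remained the lowest 4.

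**Figure D3:**
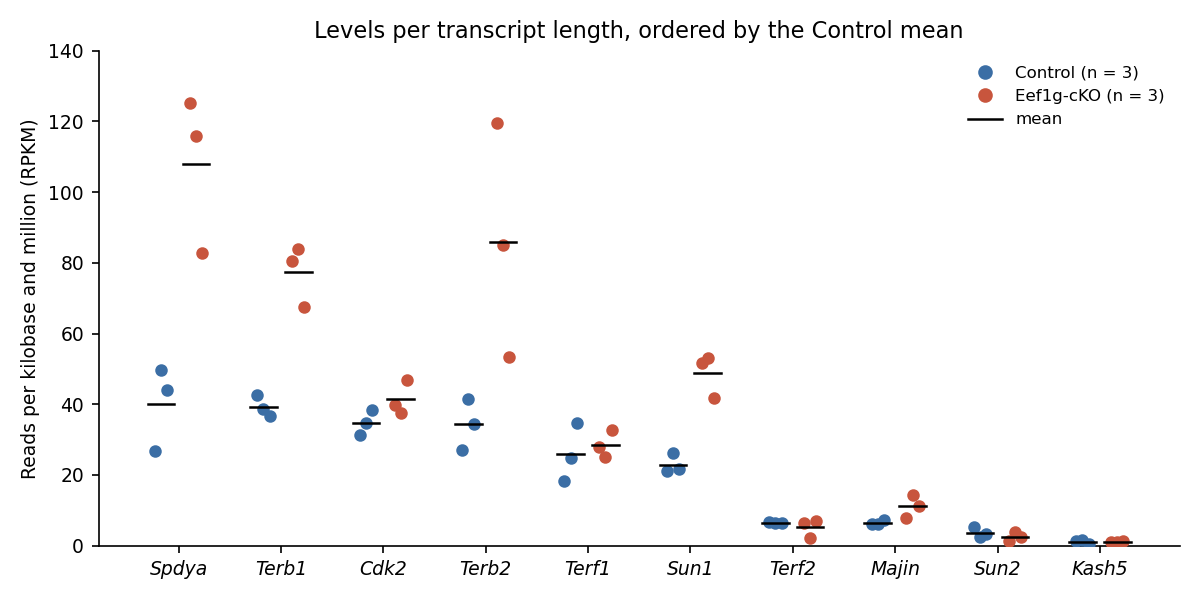
RPKM (linear axis from 0) of the 10 genes in each library, ordered by the Control mean from Spdya (40.2 RPKM) to Kash5 (1.11 RPKM), with Control in blue, Eef1g-cKO in red and group means as bars. The low group of Terf2, Majin, Sun2 and Kash5 is low in both genotypes.

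Ratios between partner genes within a library do not depend on how libraries are scaled. They were tested with a 2-sided exact permutation test over the 6 libraries, for which 3 against 3 allows no p below 0.1. The log2 ratio of Sun1 to Sun2 counts was 2.48, 3.84 and 3.13 in Control and 5.84, 4.21 and 4.44 in Eef1g-cKO libraries, and the groups did not overlap. The difference of the means was 1.68 on the log2 scale, or 3.21-fold, at the smallest p possible (exact permutation p = 0.1, adjusted over the 5 ratios p = 0.25). It rests on the low counts of Sun2. Without Eef1g-cKO replicate 1 this difference was 1.18, and without Control replicate 1 it was 1.35 (exact permutation p = 0.2 each). Every other omission of a library gave an exact permutation p of 0.1.

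The log2 ratio of Spdya to Cdk2 was -1.72, -0.98 and -1.29 in Control and 0.15, 0.13 and -0.68 in Eef1g-cKO libraries. Here too every Eef1g-cKO library was above every Control library, and the mean ratio differed by 2.29-fold, at the smallest p the design allows (exact permutation p = 0.1, adjusted p = 0.25). Neither ratio can pass a threshold of 0.05 with these numbers of libraries.

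The other ratios overlapped between genotypes. Terf1 to Terf2 differed by 0.68 (exact permutation p = 0.4), Terb1 to Terb2 by -0.30 (exact permutation p = 0.5) and Terb2 to Majin by 0.51 (exact permutation p = 0.6) on the log2 scale, and each of these 3 had an adjusted p of 0.6. Without Eef1g-cKO replicate 2 the first of these was 0.22, and without Eef1g-cKO replicate 1 the other two were -0.05 and 0.01. A shift between the subunits of the TERB1-TERB2-MAJIN complex was therefore not shown.

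Because L/Z marker reads also differed between genotypes, the genes were set against the marker reads of their own library. Per 1000 reads of the 9 L/Z markers, Sun1 had 16.2, 17.6 and 15.6 reads in Control and 16.8, 19.0 and 11.3 reads in Eef1g-cKO libraries. Terb1 had 16.2, 12.8 and 13.1 against 12.9, 14.8 and 8.99 reads, Terb2 had 5.82, 7.77 and 6.91 against 10.8, 8.47 and 4.00 reads, and Spdya had 5.98, 9.68 and 9.20 against 11.7, 12.0 and 6.47 reads. On this scale all 4 genes that rose against the whole library overlapped between genotypes, and Eef1g-cKO replicate 3 was the lowest of its group for each of them.

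Another 4 genes, none of them called against the whole library, lay lower on the marker scale. Cdk2 had 19.8, 19.1 and 22.6 reads per 1000 marker reads in Control and 10.6, 11.0 and 10.4 in Eef1g-cKO libraries. Terf1 had 8.54, 10.1 and 15.2 against 5.49, 5.45 and 5.37 reads, Terf2 had 3.18, 2.56 and 2.77 against 1.24, 0.46 and 1.15 reads, and Sun2 had 2.87, 1.21 and 1.75 against 0.28, 1.02 and 0.49 reads. In these 4 genes every Eef1g-cKO library lay below every Control library, as in 71.3% of all tested genes, whereas 0.446% of all tested genes lay above in every library. With libraries scaled to marker reads, edgeR gave log2 fold changes of -0.94 for Cdk2 (adjusted p = 0.00155), -1.05 for Terf1 (adjusted p = 0.00416), -1.60 for Terf2 (adjusted p = 0.0116) and -1.64 for Sun2 (adjusted p = 0.0296). This scaling was added after the data had been seen, and it shifts the median over the whole table by -1.17 on the log2 scale to -1.22. Cdk2 and Terf1 lay above that median, and Terf2 and Sun2 below it. With this scaling 61.2% of all tested genes were called lower, so lower values on it are not particular to the attachment genes.

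**Figure D4:**
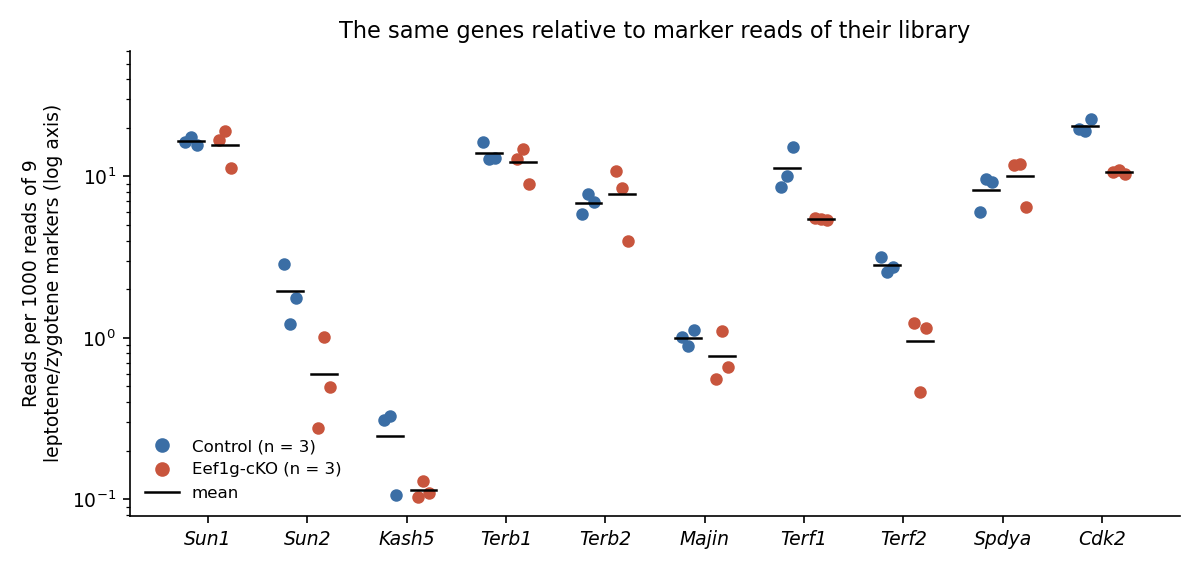
Reads of the 10 genes per 1000 reads of 9 L/Z marker genes in the same library (log axis), with Control in blue, Eef1g-cKO in red and group means as bars. Sun1, Terb1, Terb2 and Spdya overlap between genotypes, while Cdk2, Terf1, Terf2 and Sun2 are lower in all 3 Eef1g-cKO libraries, as are 71.3% of all tested genes.

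Genes that work beside the attachment machinery were read from 4 lists. Their called counts stand beside 7.8% higher and 6.01% lower of all tested genes, and no list was tested as a set. In the list of other shelterin and telomere end proteins, 16 of 19 genes were tested, 0 rose and 1 fell (edgeR), with a median log2 fold change of -0.22. The gene that fell was Pot1a, which encodes a protein bound to single-stranded telomeric DNA, from 51.3 ± 8.61 to 12.8 ± 3.41 CPM (SD, n = 3), that is by -1.95 on the log2 scale (adjusted p = 0.0046). The list's most abundant genes did not pass: the tankyrases Tnks2 and Tnks had log2 differences of 0.18 (adjusted p = 0.55) and 0.79 (adjusted p = 0.062), and Nop10, a telomerase-associated snoRNP gene, had -0.77 (adjusted p = 0.084).

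In the list of other LINC and nuclear envelope proteins, 11 of 18 genes were tested, 1 rose and 1 fell (edgeR), with a median log2 fold change of -0.09. Lemd3, which encodes an inner membrane protein of the LEM domain family, rose from 137 ± 31.0 to 303 ± 24.7 CPM, that is by 1.14 on the log2 scale (adjusted p = 0.0012). Syne2, which encodes the KASH protein nesprin-2 of other cell types, fell from a mean of 55.9 CPM in Control to 21.5 ± 4.68 CPM in Eef1g-cKO, that is by -1.38 on the log2 scale with a 95% interval from -2.20 to -0.56 (adjusted p = 0.024). Tmpo and Banf1, a lamina-associated protein gene and a chromatin-bridging protein gene, had log2 differences of -0.35 (adjusted p = 0.31) and 0.50 (adjusted p = 0.17). Syne3, Syne4 and Sun5 had 0 reads in all 6 libraries, which allows at most 1.18 to 4.63 CPM in a library.

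Of the dynein and dynactin genes, whose motor moves telomeres along the envelope, 19 of 22 were tested, 2 rose and 1 fell (edgeR), with a median log2 fold change of 0.03. Pafah1b1, which encodes the dynein regulator LIS1, rose from 468 ± 28.5 to 712 ± 196 CPM (0.60 on the log2 scale, adjusted p = 0.033). Actr10, a dynactin pointed-end subunit gene, rose from 141 ± 17.7 to 244 ± 63.1 CPM (0.80 on the log2 scale, adjusted p = 0.020). Dctn4, another pointed-end subunit gene, fell from 92.9 ± 12.1 to 41.9 ± 20.6 CPM (-1.09 on the log2 scale, adjusted p = 0.038). Dynll1, the dynein light chain gene and the most abundant of the list, had a log2 difference of 0.18 (adjusted p = 0.50).

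Of the CDK2 partners and regulators, 12 of 17 were tested, 0 rose and 1 fell (edgeR), with a median log2 fold change of 0.25. The gene that fell, named here after its values were seen, was Cks1b, which encodes a small CDK-binding protein, from 212 ± 11.5 to 106 ± 29.6 CPM (-0.97 on the log2 scale, adjusted p = 0.0081). Its relative Cks2 had a log2 difference of 0.36 (adjusted p = 0.28), Ccnh, the cyclin of the CDK-activating kinase, had 0.30 (adjusted p = 0.33), and Ccna2, a mitotic cyclin gene, had -0.62 (adjusted p = 0.086).

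**Figure D5:**
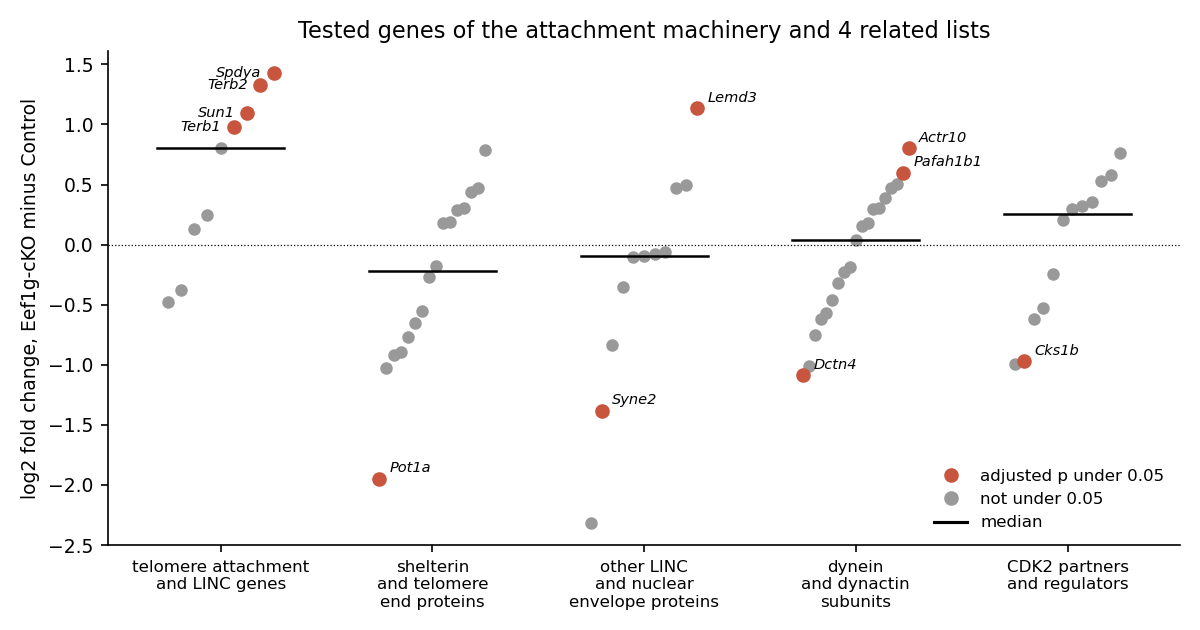
Log2 fold change (Eef1g-cKO minus Control, edgeR, TMM scaling) of every tested gene of the attachment machinery and of 4 related lists, red and named where the adjusted p was under 0.05, with list medians as bars. The median is 0.80 for the 9 attachment genes and between -0.22 and 0.25 for the lists, all on the whole-library scale. On that scale the 9 L/Z markers, not drawn here, have a median of 1.09. The 4 called attachment genes are higher on it but are not called higher relative to L/Z marker reads.

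The genes whose profile over the 6 libraries was most like that of the 3 best-covered members were found by the root mean square (RMS) difference of centred log2 CPM among 4708 genes with at least 50 reads on average. Nearest to Sun1 were Poln (RMS 0.07) and Mtpn (RMS 0.09), against a median of 0.60 over all candidates. Nearest to Terb1 were Lmbrd2 (RMS 0.06) and Yrdc (RMS 0.08), against a median of 0.54. Nearest to Cdk2 were Tex30 (RMS 0.05) and Arpc5l (RMS 0.06), against a median of 0.39. These are descriptions over 6 libraries of unequal depth.

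Promoter windows of 250 bases before to 50 after the annotated start were available from RefSeq (GRCm38.p6) for 7 of the 10 genes, in 9 windows, and Terb2, Majin and Terf1 are named only. They were searched on both strands for 4 motifs: CNCCTCAG, the letters known for the meiotic regulators STRA8 and MEIOSIN, GGCGGGA, the core known for E2F factors, the letters TAACNG that MYB factors are known to bind, and CACGTG, an E-box. The E2F motif was found in a window of Sun1, of Terb1 and of Cdk2, and in 11.3% of 32851 windows of the same length. That share covers windows of any GC content, and an excess over it was not tested. Its sequences are shown here because this motif was found before the annotated start in 3 of the genes, Sun1 and Terb1, which rose, and Cdk2, which did not pass the test. Capitals mark the match, which appears as its reverse complement where it lies on the opposite strand, and all sequences run 5′ to 3′ on the strand of the gene.
Sun1, chr5:139200466-139200516, plus strand, match from -149: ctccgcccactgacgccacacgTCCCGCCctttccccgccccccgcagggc
Sun1, chr5:139200571-139200621, plus strand, match from -44: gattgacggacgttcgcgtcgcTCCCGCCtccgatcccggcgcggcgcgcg
Terb1, chr8:104509908-104509958, minus strand, match from -49: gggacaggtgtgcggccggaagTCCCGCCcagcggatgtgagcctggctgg
Cdk2, chr10:128705108-128705158, minus strand, match from -85: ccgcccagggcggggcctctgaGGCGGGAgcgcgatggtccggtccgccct

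Positions are counted from the annotated start, with negative numbers before it. The STRA8-MEIOSIN motif was found at 41 in Sun1, at -89 in Cdk2, where it overlaps the E2F match, and at 34 in Spdya, and in 7.94% of all windows. The MYB motif was found in the second Sun1 window and at -159 in Spdya, printed here as the gene with the highest estimate, and in 23.3% of all windows. The E-box, present in 7.15% of all windows, was in none of the 9. The windows of Sun2, Terf2 and Kash5 held none of the 4 motifs. These matches are letters in a window and were not compared with binding.
Spdya, chr17:71551880-71551929, plus strand, match from -159: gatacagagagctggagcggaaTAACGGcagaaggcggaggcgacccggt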

How the data were processed

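The authors isolated L/Z spermatocytes by flow cytometry, amplified full-length cDNA from polyadenylated RNA with a low-input kit, trimmed the reads with fastp, aligned them to mm10 (GRCm38) with HISAT2 and counted reads per gene with featureCounts. The deposited values are raw counts per gene for 6 libraries, not normalised. Strand use and the treatment of reads with several alignments are not given in the sources used here. Reads carried no molecular identifiers, PCR copies count separately, and the floor of 3 reads covers counting error only. Groups and replicate numbers were taken from sample titles.

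Counts were tested with edgeR 4.0.16 in R 4.3.3: filterByExpr (minimum count 10, minimum total 15), TMM scaling, robust quasi-likelihood F test with genotype as the only term, and Benjamini-Hochberg adjustment over the 8513 genes tested. Calls were made at an adjusted p under 0.05, and only called genes are said to have risen or fallen. SEs were obtained from F and the log2 fold change. Ratios used count + 0.5 and a 2-sided exact permutation test. The fit was also run on simulated counts with planted changes. Those counts held no differences in cell composition or amplification, so they do not bear on either. Every pair of libraries differed by more than sampling noise (chi-square per degree of freedom at least 6.37).

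The genes of interest, the lists and the motifs were chosen with earlier results of these data known. Named genes are all 10 genes of interest, Eef1g, of each list the 3 most abundant genes and those called with an absolute log2 fold change over 1, and the 2 nearest profiles of the 3 genes with most reads. Alternatives were DESeq2 1.42.0, limma-voom 3.58.1 with quality weights, scaling by RLE, the upper quartile or library totals, a filter of at least 10 reads in every library or none, a non-robust fit, a replicate block, a GC content offset, both together, each library left out and, added after seeing the data, scaling to L/Z marker reads.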

Additional observations from a re-analysis of the deposited data

How the results depend on the processing

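Under 17 other settings of the fit, edgeR, DESeq2 or limma-voom called the same number of attachment genes, 4 higher and 0 lower, with or without each library, and Sun1, Terb1, Terb2 and Spdya were the called genes in each of them (adjusted p at most 0.047). Shares of all tested genes under these 17 settings are not given here. Scaling to L/Z marker reads, added after seeing the data, gave 0 higher and 4 lower, against 0.235% and 61.2% of all tested genes. It turned the log2 fold changes of Sun1 (-0.065), Terb1 (-0.19), Majin (-0.35), Terf1 (-1.05) and Cdk2 (-0.94). Terb2 (0.19) and Spdya (0.28) kept their sign but no longer passed. The scaling itself moved the median of all tested genes by -1.17. Among genes that were called in none of the 17, the GC content offset turned Sun2 to 0.0068 and Terf1 to -0.15, and Terf1 was also at -0.071 with library totals, -0.012 with at least 10 reads in every library and -0.11 with the replicate block and GC content offset together, for a cause that was not tested. Omission of 1 library at a time gave log2 fold changes between -0.050 (without Control replicate 1) and 0.40 for Terf1 and between -0.63 and 0.059 (without Eef1g-cKO replicate 2) for Terf2. Without Eef1g-cKO replicate 1 the log2 ratio of Terb2 to Majin was 0.01 in place of 0.51 and that of Terb1 to Terb2 -0.05 in place of -0.30, and without Eef1g-cKO replicate 2 that of Terf1 to Terf2 was 0.22 in place of 0.68. The filter of at least 10 reads in every library removed Sun2, which therefore has no value there. Upper-quartile scaling, library totals and the absence of a filter moved the median of all genes by -0.12, -0.19 and -0.25. The replicate block kept the count at 4 higher and 0 lower, but same-numbered libraries did not deviate together (correlations of -0.04, 0.02 and -0.05 over 8513 genes), so the numbers were not taken as pairs. Depth limits Kash5, Majin and Sun2 most, and with 3 libraries per genotype the exact test of a ratio cannot go below 0.1.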
